A study of Mus musculus with 142 samples.

Results

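Histone H3.3 K27M was compared with Control in oligodendrocyte precursor cells (OPCs) of the mouse dorsal telencephalon while the cells were still proliferating, before any differentiation (day 0). The libraries were those titled as K27M or Control dorsal telencephalon OPC cultures with no differentiation, 18 libraries in all: 9 of the 71 K27M wells and 9 of the 71 Control wells of the series, 3 from each of cultures 38, 41 and 42. K27M cells came from pups that carried hGFAP-Cre and 1 H3f3a allele (H3-3a in current naming) in which Cre removes a stop cassette, so that the allele makes H3.3 with methionine in place of lysine 27. Control cells came from littermates with the same allele but no Cre, so that their stop cassette stays in place and H3f3a is made from the other allele alone. Both groups were FVB pups of both sexes aged P5 to P7. Tissue of a litter was pooled by region and genotype, endothelial cells and microglia were depleted on a BSL1 lectin plate, OPCs were bound to an anti-PDGFRa plate, and the cells were grown and passaged in medium with PDGF, neurotrophin-3, CNTF and forskolin. The human GFAP promoter drives Cre in neural stem and progenitor cells broadly, so recombination was not restricted to OPCs, and the presence of Cre and of the K27M allele cannot be told apart in this design. The brainstem cultures of the same study and the telencephalic cultures after 1, 2 or 5 days in differentiation medium were used for comparison.

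Lysine 27 of histone H3 is the residue that Polycomb repressive complex 2 (PRC2) methylates, and trimethylation of it marks silenced developmental genes. The K27M protein impairs PRC2 across the genome, which lowers trimethylation at many sites, and the mutation is known from diffuse midline glioma of children. OPCs are the dividing glial precursors, marked by the PDGF receptor PDGFRa, that give rise to the myelinating oligodendrocytes of the brain.

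The 18 libraries held 32780095 to 72001938 assigned read pairs (median 46410826) and detected 22816 to 24843 genes each. Levels are given as CPM, the read pairs of a gene scaled to a common library size, and as TPM, which also divides by transcript length, where different genes are compared. The 3 wells of a culture line share their cells and are not separate cultures, so each difference was tested over the wells and again over 3 summed cultures a group. A gene is called where its edgeR p-value, adjusted over all genes tested, is under 0.05, and "rose" and "fell" refer to calls on wells. K27M culture 42 well 3 was taken at passage 3 and its sister wells at passage 1. It lay at -24.1 on the first principal component, against 14.8 and 18.04 for the sister wells. Control culture 42 wells 2 and 3 stood apart by their mature oligodendrocyte transcripts, and each result that rests on these wells is given without them. The labels put culture 38 in batch 1 and cultures 41 and 42 in batch 2, with both genotypes in each, and do not say what the batch number stands for. Passage differed between genotypes within cultures, at 3 in K27M and 2 in Control for culture 38, and at 1 in K27M and 2 to 3 in Control for culture 41.

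Expression of the altered gene was higher in K27M. H3f3a, on the minus strand of chromosome 1, stood at 370 to 434 CPM in the K27M wells (median 411), against 264 to 329 CPM in the Control wells (median 273). Every K27M well was above every Control well. The log2 fold change was 0.54 ± 0.09 (SE, n = 9 wells each, edgeR adjusted p = 8.23e-06), and the adjusted p over culture sums was 0.0558. The second H3.3 gene, H3f3b, which codes for the same protein, did not pass the test (log2 fold change -0.02, adjusted p = 0.847). Its wells ranged from 536 to 613 CPM in K27M and from 475 to 640 CPM in Control. The reads per transcript do not show which H3f3a allele they came from. The bases that the knock-in allele alters are those of the codon for lysine 27, which is codon 28 with the start methionine counted. The reference sequence of codons 18 to 38 (GRCm38, chr1:180811813-180811875, minus strand, codon 28 in capitals) is shown because the whole comparison turns on it.

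H3f3a codons 18 to 38: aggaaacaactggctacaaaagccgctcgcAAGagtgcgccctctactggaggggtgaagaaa

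The annotated transcript H3f3a-206, which holds an exon at chr1:180812690-180812786 that H3f3a-201 lacks, separated the genotypes in the other direction. It held an estimated 8 read pairs over the 9 K27M wells, at 0 to 0.131 TPM, against 314 read pairs over the 9 Control wells, at 1.18 to 1.99 TPM. The main transcripts H3f3a-201 and H3f3a-207 were higher in K27M, at 144 and 136 TPM on average, against 89.8 and 89.3 TPM in Control. Where the stop cassette lies relative to this exon was not tested.

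Prm1 separated the genotypes without overlap. It codes for protamine 1, a sperm nuclear protein that replaces histones. Prm1 stood at 67.0 to 97.3 CPM in the K27M wells (median 75.8), and no Control well held a read pair of it. The 38210 read pairs in K27M, against 0 in Control, make Prm1 at least 12790-fold higher in K27M, with 3 counts over the group as the floor. All of them were assigned to Prm1-202, and the 4 other sperm chromatin genes of the list (Prm2, Prm3, Tnp1 and Tnp2) had no counts in these wells. The study's methods describe its Cre construct as carrying Prm1 sequence, and left Prm1 out of a gene signature of its single-cell data as an artifact. Cre and the K27M allele occur together here, and which copy gave the reads was not tested.

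Over all genes, 3097 of 19769 were called on wells (15.7%). Of these, 1178 rose (5.96% of genes tested) and 1919 fell (9.71%). The counts of risen and fallen members of each gene list are to be read against these shares. The risen genes had the larger changes, with a median log2 fold change of 0.56, against -0.33 for the fallen genes and -0.01 for all genes tested. Calls of at least 2-fold were nearly balanced, at 253 higher (1.28%) and 243 lower (1.23%). Over culture sums 75 of 23003 genes were called (0.326%), 48 higher (0.209%) and 27 lower (0.117%), and all 75 were also called on wells. At an unadjusted p under 0.05 the culture sums gave 2566 genes. The number of calls depended on culture 38: 697 genes were called without it, 317 higher and 380 lower. Log2 ratios within a culture, where given, compare the mean CPM of its wells with 0.5 added, which understates the changes of low genes. Wells of 1 line were close to each other (correlation of log CPM across genes 0.982 to 0.994, median 0.990), and the genotypes of 1 culture were as far apart as different cultures of 1 genotype (median 0.983 in both cases). The called genes differed in length, with a median effective length of 3228 bases for risen genes, 1797 bases for fallen genes and 2122 bases for all genes tested. Across genes, length and the log2 ratio of K27M over Control had Spearman correlations of 0.16, 0.22 and 0.18 in cultures 38, 41 and 42. A recount from TPM scaled to library size called 2541 genes. The part of length in the calls was not tested further.

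**Figure D1:**
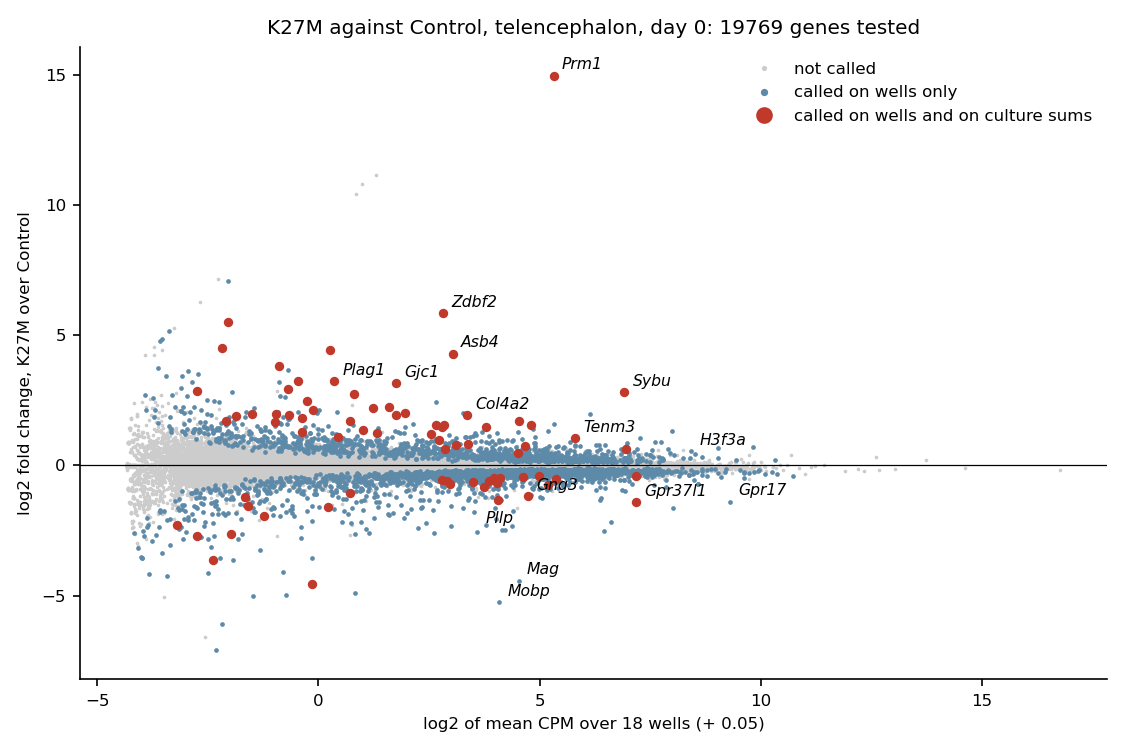
Log2 fold change (K27M over Control, y axis) against the log2 of the mean CPM over the 18 wells (x axis) for the 19769 genes tested. Grey points were not called, blue points were called on wells only, and red points were among the 75 genes also called over culture sums, with Prm1, Zdbf2 and Asb4 at the top.

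A gene was followed further where it was called on wells and over culture sums, had the same sign in all 3 cultures and reached a mean of 5 CPM in either genotype. This held for 40 genes, 23 higher and 17 lower in K27M. The wells of the genotypes did not overlap for any of the 23 higher genes and for 8 of the 17 lower genes. Over all genes tested, non-overlapping wells were found for 233 genes with K27M higher (1.18%) and 293 with K27M lower (1.48%). The rule was applied to the same wells and so favours genes without overlap, and this separation is not separate evidence for them.

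Among these 40 genes, the largest increases apart from Prm1 were in 2 imprinted genes, of the class expressed from the maternal or the paternal copy alone. Zdbf2 (ENSMUSG00000027520.15, chr1:63273265-63314576), a paternally expressed gene whose knockout in mice reduces growth, stood at 7.19 to 19.1 CPM in the K27M wells (median 13.9), against 0 to 1.46 CPM in the Control wells (median 0). The highest Control well was well 3 of culture 38. The log2 fold change was 5.84 ± 0.64 (adjusted p = 2.14e-12, over culture sums 2.82e-05), a fitted value that depends on the near-absence of counts in Control. Asb4 (ENSMUSG00000042607.15, chr6:5383386-5433022), a maternally expressed SOCS-box protein gene, stood at 9.19 to 21.1 CPM in K27M (median 16.4), against 0.549 to 1.04 CPM in Control (median 0.766). No well overlapped, and the log2 fold change was 4.30 ± 0.24 (adjusted p = 1.43e-32, over culture sums 7.56e-08).

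The sequences before the starts of the genes that mark the 2 directions of change, and of the telencephalic regulator Dmrta2, are shown because PRC2 is recruited largely to CpG-rich promoters, and these windows differ widely in CpG content. Each is 250 bases from RefSeq (GRCm38.p6), 5′ to 3′ on the gene's strand, with every CG in capitals. The windows lie at chr1:63273019-63273268 (Zdbf2, plus strand, the window next to the GENCODE start), chr6:5383136-5383385 (Asb4, plus strand), chr4:109977775-109978024 (Dmrta2, plus strand) and chr1:135167682-135167931 (Gpr37l1, minus strand).

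Zdbf2: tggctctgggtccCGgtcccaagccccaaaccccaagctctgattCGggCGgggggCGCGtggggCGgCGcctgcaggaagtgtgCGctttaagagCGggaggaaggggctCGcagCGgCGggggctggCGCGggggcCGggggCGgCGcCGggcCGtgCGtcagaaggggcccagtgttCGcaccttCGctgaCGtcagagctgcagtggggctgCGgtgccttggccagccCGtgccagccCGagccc
Asb4: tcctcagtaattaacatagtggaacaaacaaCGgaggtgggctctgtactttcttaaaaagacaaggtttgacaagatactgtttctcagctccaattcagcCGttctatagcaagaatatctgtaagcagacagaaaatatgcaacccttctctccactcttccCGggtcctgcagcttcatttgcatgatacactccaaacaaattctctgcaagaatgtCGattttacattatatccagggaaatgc
Dmrta2: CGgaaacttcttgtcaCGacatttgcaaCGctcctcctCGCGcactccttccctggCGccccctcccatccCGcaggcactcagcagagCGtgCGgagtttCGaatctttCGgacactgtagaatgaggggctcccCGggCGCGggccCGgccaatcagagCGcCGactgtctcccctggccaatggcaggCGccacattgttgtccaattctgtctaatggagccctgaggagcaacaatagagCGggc
Gpr37l1: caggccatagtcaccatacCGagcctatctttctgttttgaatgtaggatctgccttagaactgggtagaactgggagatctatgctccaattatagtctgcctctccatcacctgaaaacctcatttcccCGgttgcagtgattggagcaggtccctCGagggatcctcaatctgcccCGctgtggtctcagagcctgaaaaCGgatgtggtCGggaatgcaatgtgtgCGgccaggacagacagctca

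The printed 250 bases hold 26 CG in Zdbf2, 4 in Asb4, 19 in Dmrta2 and 7 in Gpr37l1. With the 50 bases after the start included, the counts were 38, 6, 26 and 7. Over all 32851 RefSeq windows of 300 bases the median was 7 and 43.5% held at least 10, while over the 12321 genes tested here that matched a window the median was 21 and 81.2% held at least 10. Against the tested genes the windows shown for Zdbf2 and Dmrta2 thus lay above the median and those for Asb4 and Gpr37l1 below it. Zdbf2 and Asb4 each have another RefSeq window, at chr1:63200108-63200357 and chr6:5390160-5390409. With the 50 bases after the start these hold 15 and 8 CG, both below the median of the tested genes. Which start gave the reads was not tested. Windows matched 67.6% of the risen genes, 75.5% of the fallen genes and 62.3% of all genes tested, and because of these gaps the whole sets were not compared.

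Imprinted genes as a group were often higher in K27M. Of 37 tested, 18 rose and 2 fell, and the median log2 fold change was 0.27, against -0.01 for all genes tested. Magel2, a gene of the Prader-Willi region, stood at 2.28 to 3.89 CPM in K27M (median 2.75), against 0.305 to 0.575 CPM in Control (median 0.390). These wells did not overlap (log2 fold change 2.75 ± 0.27, adjusted p = 1.14e-14, over culture sums 0.00559). Its neighbour Ndn (Necdin, a growth suppressor of neurons) stood at 131 to 170 CPM in K27M (median 155), against 86.0 to 108 CPM in Control (median 93.5). It also rose without overlap (0.65 ± 0.09, adjusted p = 1.71e-08, over culture sums 0.038), whereas Snrpn of the same region fell by 0.22 on the log2 scale (adjusted p = 0.0303). Smaller increases passed the test on wells for Igf2 (1.24), Plagl1 (0.98), Peg10 (0.87), Meg3 (0.86), Kcnq1ot1 (0.75), H19 (0.70) and Peg3 (0.27), and the second decrease was Zrsr1. Increased genes included paternally expressed (Zdbf2, Magel2, Ndn, Igf2, Peg3, Peg10) and maternally expressed members (Asb4, H19, Meg3). Over culture sums 4 members were called, all higher, and without culture 38 the wells gave 12 higher and 0 lower.

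Genes of fetal growth, which are normally shut down around birth, had the highest median of the lists except the single tested sperm chromatin gene. Of 15 tested, 10 rose and 0 fell, with a median log2 fold change of 0.83 and culture medians of 1.06, 0.57 and 0.60 in cultures 38, 41 and 42. Plag1, a zinc-finger activator of Igf2, stood at 1.099 to 3.31 CPM in K27M (median 2.35), against 0.0548 to 0.327 CPM in Control (median 0.204). Lin28b, an RNA-binding protein that blocks let-7 processing, stood at 0.399 to 1.81 CPM in K27M (median 0.805), against 0.0381 to 0.190 CPM in Control (median 0.133). The wells did not overlap for either gene, with log2 fold changes of 3.24 ± 0.30 for Plag1 (adjusted p = 3.34e-16, over culture sums 0.000633) and 2.93 ± 0.38 for Lin28b (1.48e-09, over culture sums 0.0353). Igf2bp3, an mRNA-binding protein of fetal tissue, stood at 97.4 to 136 CPM in K27M, against 16.9 to 43.8 CPM in Control (1.99 ± 0.36, adjusted p = 1.3e-05, over culture sums 0.226). Hmga2, a chromatin protein of growing fetal tissue, rose by 1.33 with overlapping wells, and Igf2bp2 by 0.89 without overlap. Chchd7, the gene next to Plag1, rose by 1.21 ± 0.16, and the Plag1 relative Plagl2 by 0.81 ± 0.14, both also over culture sums. Without culture 38, 6 of the list's genes were called.

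The collagen IV pair rose together. Col4a1 and Col4a2 code for the chains of the network collagen of basement membranes and start 21 bases apart on opposite strands of chromosome 8. Col4a2 stood at 12.5 to 21.97 CPM in K27M (median 14.4), against 3.503 to 5.67 CPM in Control (median 4.20). Col4a1 stood at 27.8 to 60.6 CPM in K27M (median 38.2), against 11.9 to 18.4 CPM in Control (median 13.6). Neither gene had overlapping wells, and the log2 fold changes were 1.93 ± 0.21 for Col4a2 (adjusted p = 1.8e-12, over culture sums 0.0087) and 1.57 ± 0.21 for Col4a1 (3.12e-09, over culture sums 0.0421). Of the 35 collagen and matrix genes tested, 8 rose and 0 fell (median 0.46), among them Col18a1 (0.89), Acan (1.05) and Col25a1 (1.16). The pair alone was called over culture sums, and 3 of the list were called without culture 38. Col4a1 is also made by vascular cells, whose markers summed to 0.108 to 0.821 TPM in K27M wells and 0.118 to 0.464 TPM in Control wells, and the part of such cells in the increase was not tested. The level was 3.93 TPM on average for the main coding transcript of Col4a1 in K27M and 1.27 TPM in Control.

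Regulators of telencephalic identity were called higher, and a few regulators of hindbrain identity lower. Of 17 tested telencephalic identity genes 9 rose and 0 fell (median 0.64), and of 14 tested hindbrain and dorsal neural tube genes 0 rose and 5 fell (median -0.64). Dmrta2, a doublesex-related factor of the dorsal telencephalon, stood at 2.87 to 8.17 CPM in K27M (median 4.59), against 0.880 to 1.95 CPM in Control (median 1.28). Otx1, a forebrain homeobox gene, stood at 2.33 to 4.44 CPM in K27M (median 3.83), against 0.438 to 1.36 CPM in Control (median 0.817). The wells did not overlap for either gene, with log2 fold changes of 1.94 ± 0.21 (adjusted p = 8.3e-13, over culture sums 0.0009) and 2.19 ± 0.29 (4.89e-09, over culture sums 0.038). Zic1 rose by 1.09 and Lhx2 by 0.68, while Emx2 (0.51, adjusted p = 0.0743) did not pass. Sp8 had the largest fold change of the list (3.65 ± 0.80) but was at 0 to 2.71 CPM in K27M and 0 to 0.628 CPM in Control, with a culture 38 ratio of -0.03. Without culture 41, 4 of the list were called.

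En2, a homeobox gene of the midbrain and hindbrain, was the one of these 5 above 1 CPM on average. It stood at 1.93 to 13.6 CPM in K27M (median 4.61), against 9.55 to 48.5 CPM in Control (median 28.8). The wells overlapped, and the log2 fold change was -2.06 ± 0.33 (adjusted p = 1.05e-06, over culture sums 0.0788), with culture ratios of -0.69, -3.43 and -1.96. Irx3, Irx5, Gbx2 and Msx2 also fell, all under 1 CPM on average in both genotypes, and Irx3 was called over culture sums too (-2.63, adjusted p = 0.000938). Without culture 41 the list gave 2 higher and 4 lower genes and its median was -0.05, and the median ratios within cultures 38, 41 and 42 were 0.02, -0.27 and -0.09. The Hox genes, the classical Polycomb targets of the hindbrain and spinal cord, were tested as a list of their own. Of 39 Hox genes 22 passed the filter on low counts and 0 were called by edgeR or by DESeq2, with 1 at an unadjusted p under 0.05 (median -0.20). That filter ran over all libraries of the series, brainstem included, so a gene could pass it with few counts here. The median Hox ratio within cultures 38, 41 and 42 was 0.0 in each, which can follow from very low levels. The absence of calls therefore cannot show whether Hox genes changed in these cells.

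Among 69 developmental regulators that PRC2 keeps silent in most brain cells, 36 were high enough to test, and 13 rose and 4 fell (median 0.33). Increases included the homeobox gene Prrx1 (41.03 CPM in K27M and 16.7 CPM in Control on average, log2 fold change 1.40), Zic2 (0.83), Zic5 (0.85), Sall1 (0.76) and Eya1 (0.59). Prrx1 was thus already expressed in Control cells. Which genes of the list PRC2 marks in these cells was not tested. Pbx3, a homeobox gene outside this list, had nearly the same ratio in each culture. It stood at 30.0 to 33.5 CPM in K27M (median 31.7), against 17.6 to 20.5 CPM in Control (median 19.1), with culture ratios of 0.73, 0.73 and 0.70 (log2 fold change 0.73 ± 0.07, adjusted p = 9.23e-17, over culture sums 0.0009). The 4 decreases were in Onecut1, Onecut2, Pou4f1 and Gsc. Onecut2 stood at 0.598 to 1.08 CPM in K27M, against 1.54 to 4.19 CPM in Control (-1.62, adjusted p = 4.62e-05, over culture sums 0.118), and Pou4f1 at 0.0460 to 0.265 CPM in K27M, against 0.399 to 0.900 CPM in Control (-1.92, over culture sums 0.00103). These counts leave out the 33 regulators too low to be tested.

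Further increases were in single genes of unlike function. Gjc1 (connexin 45, a gap junction protein) stood at 3.37 to 8.89 CPM in K27M (median 5.14), against 0.266 to 0.938 CPM in Control (median 0.730), a log2 fold change of 3.18 ± 0.27 (adjusted p = 2.52e-18). Hspa12a, a distant relative of the HSP70 chaperones, stood at 26.8 to 42.0 CPM in K27M (median 37.5), against 5.78 to 18.8 CPM in Control (median 9.94), a change of 1.72 ± 0.19 (2.16e-12). Neither gene overlapped between genotypes. The mechanosensitive channel gene Piezo2 rose by 1.56 ± 0.20, the tyrosine kinase gene Syk by 1.54 ± 0.21 and the ubiquitin ligase gene Nedd4l by 1.48 ± 0.19, each also over culture sums (adjusted p = 0.0285, 0.0425 and 0.0275). The adhesion proteins Tenm3 and Tenm2, which bind latrophilins across cell contacts, rose by 1.05 ± 0.12 and 2.25 ± 0.23, and Tenm3 reached 60.1 to 92.8 CPM in K27M, against 29.8 to 40.3 CPM in Control. In the list of teneurins, latrophilins and related adhesion genes, however, 6 rose and 5 fell of 44 (median 0.03). These are 13.6% and 11.4%, against 5.96% and 9.71% over all genes tested.

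Sybu, which codes for syntabulin, a linker of vesicles to kinesin, had the smallest adjusted p of the named genes after Prm1. It stood at 197 to 234 CPM in K27M (median 205), against 23.7 to 37.5 CPM in Control (median 27.7), a log2 fold change of 2.81 ± 0.11 (adjusted p = 4.51e-47, over culture sums 1.37e-11). The increase was on 1 annotated transcript. Sybu-209, made of exons at chr15:44787589-44788063 and chr15:44760975-44764612 on the minus strand, was at 26.9 to 35.1 TPM in the K27M wells (87.4% of the gene's mean TPM), against 0.131 to 0.297 TPM in the Control wells (3.22%). The other Sybu transcripts summed to 3.80 to 4.77 TPM in K27M, against 4.76 to 8.75 TPM in Control. This transcript was singled out after its values were seen. The pseudogene A930017M01Rik (chr15:44752280-44884740, plus strand) overlaps Sybu and also met the rule. It rose by 2.01 ± 0.13 on the log2 scale (edgeR adjusted p = 6.93e-27, over culture sums 1.74e-06), without overlap of wells. Whether the increases of Sybu and of this pseudogene are linked was not tested.

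**Figure D2:**
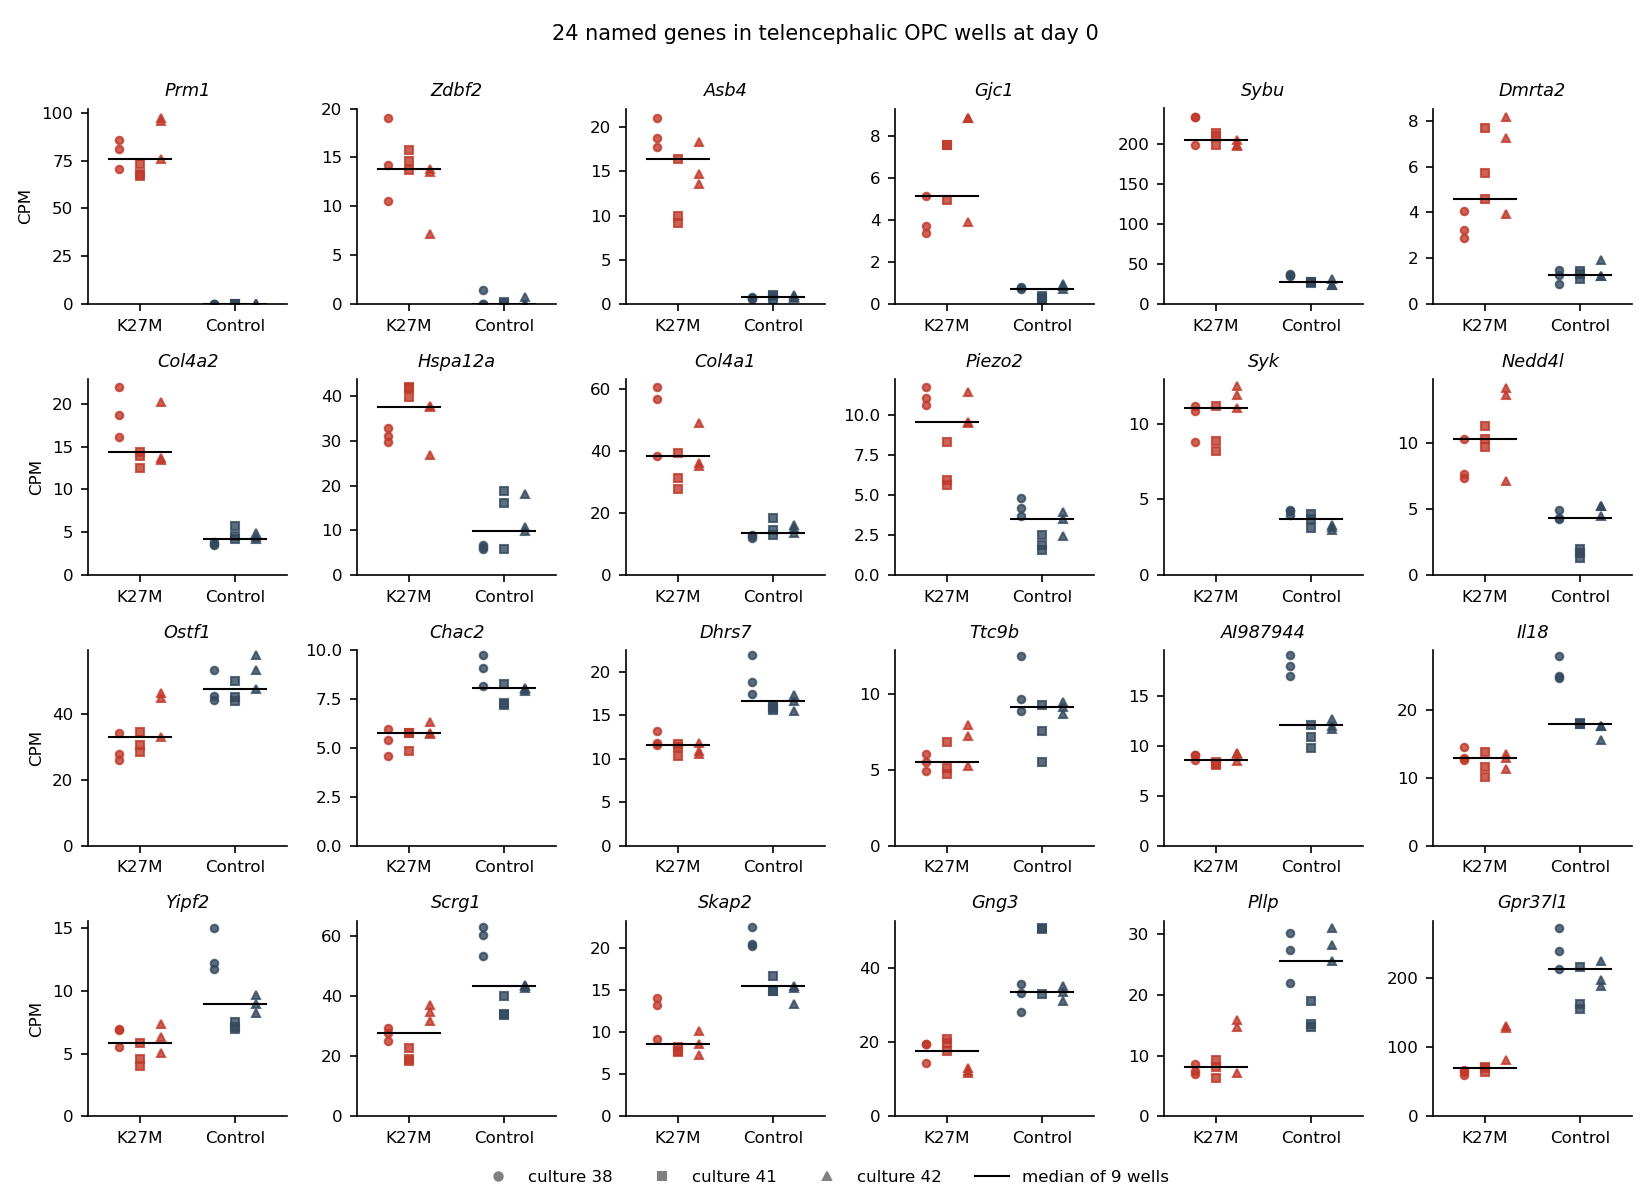
CPM of the 24 named genes in each of the 9 K27M (left, red) and 9 Control (right, dark) wells, by culture (symbols), with the median as a line. The wells of the 12 increased genes do not overlap, from Prm1 at 67.0 to 97.3 CPM against 0 down to Nedd4l, while 6 of the 12 decreased genes have overlapping wells.

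The decreases were smaller. Gpr37l1 (ENSMUSG00000026424.8, chr1:135160234-135167681), a G-protein-coupled receptor of astrocytes and glial precursors, stood at 59.97 to 130.2 CPM in K27M (median 70.0), against 155 to 271 CPM in Control (median 212). The wells did not overlap (log2 fold change -1.41 ± 0.16, adjusted p = 3.78e-11, over culture sums 0.0361). Pllp (plasmolipin, a membrane protein of myelin) stood at 6.27 to 15.9 CPM in K27M (median 8.05), against 14.7 to 30.9 CPM in Control (median 25.5). Its lowest Control well was below its highest K27M well (-1.32 ± 0.16, adjusted p = 6.67e-11, over culture sums 0.0164). Gng3, a G-protein gamma subunit of neurons, stood at 11.6 to 20.9 CPM in K27M (median 17.6), against 28.1 to 50.7 CPM in Control (median 33.5), without overlap (-1.17 ± 0.12, 1.51e-13, over culture sums 0.00154). Gng3 fell while the other neuron markers that were called rose, with 4 of 17 higher and 1 lower, and with 1 and 1 without culture 41 or without the 2 Control wells of culture 42.

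The other decreases of named genes were under 2-fold. Skap2, a Src-kinase adaptor, fell by 0.84 on the log2 scale with nearly equal culture ratios (-0.77, -0.93 and -0.73). Scrg1, a secreted glial protein gene, fell by 0.76, Il18, a cytokine gene, by 0.68, and Dhrs7, a short-chain dehydrogenase gene, by 0.59. Yipf2, AI987944, Ttc9b, Chac2 and Ostf1 fell by 0.54 to 0.72. Among the remaining genes that met the rule, Atp6v0e2, a subunit of the proton pump of lysosomes, had the smallest standard error. It stood at 111 to 136 CPM in K27M (median 129), against 149 to 192 CPM in Control (median 160), without overlap (-0.40 ± 0.04, adjusted p = 2.99e-13, over culture sums 0.00183).

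The labelled cell type was checked against its markers. The summed level of 9 OPC markers, among them Pdgfra, Cspg4, Olig2 and Sox10, was 670 to 904 TPM in K27M wells (median 825) and 637 to 926 TPM in Control wells (median 792), and none of the 9 was called. In a longer list of 24 OPC genes 3 fell (12.5%, against 9.71% over all genes tested), namely Gpr17, Neu4 and Nkx2-2, and 0 rose. Microglial markers summed to at most 0.543 TPM in K27M and 0.309 TPM in Control, and neuronal markers to 8.42 to 12.3 TPM in K27M and 7.497 to 10.9 TPM in Control. Of the 3 ependymal markers, Tmem212 had no count in any of the 18 wells, and Foxj1 fell (-0.90, adjusted p = 0.000465, over culture sums 0.289). Proliferation genes were not called on wells. Mki67 stood at 549 to 828 CPM in K27M (median 714) and 527 to 886 CPM in Control (median 720), and edgeR called 0 of 31 cell cycle genes, with 1 at an unadjusted p under 0.05. DESeq2 on the 18 libraries called 12 of them.

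Transcripts of committed and mature oligodendrocytes were lower in K27M, by an amount that differed widely between cultures. Of 17 genes of committed and newly formed oligodendrocytes 11 fell and 1 rose (Bmp2), with a median of -0.78, and of 31 myelin genes 18 fell and 0 rose, with a median of -0.84. Mag, a myelin adhesion protein gene, stood at 0.576 to 2.36 CPM in K27M (median 1.54), against 0.372 to 200.5 CPM in Control (median 1.68). Mbp, the gene of myelin basic protein, stood at 14.0 to 22.1 CPM in K27M (median 18.7), against 6.35 to 671 CPM in Control (median 13.0). The medians were close, and the high Control values came from culture 42, where the log2 ratio was -5.78 for Mag and -4.40 for Mbp, against -0.34 and 0.32 in culture 38. The 6 mature oligodendrocyte markers summed to 518 and 599 TPM in Control culture 42 wells 2 and 3 (passage 2), against 67.1 TPM in well 1 (passage 1). Within each culture every K27M well lay below every Control well in this sum, at 32.3 to 35.1 TPM in K27M against 69.5 to 83.0 TPM in Control for culture 38, 20.5 to 24.9 TPM in K27M against 31.1 to 51.4 TPM in Control for culture 41, and 39.4 to 52.9 TPM in K27M against 67.1 to 599 TPM in Control for culture 42. The summed level of 5 committed precursor markers separated the genotypes in culture 38 (98.4 to 164 TPM in K27M, against 316 to 364 TPM in Control) and overlapped in cultures 41 and 42. Without those 2 Control wells 5 myelin genes were called lower (median -0.24), and without culture 42 the number was 6. Over culture sums edgeR called 0 of 31, with 12 at an unadjusted p under 0.05, and DESeq2 on wells called 15. In these bulk samples fewer cells of a type and less RNA per cell cannot be told apart.

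The ratios of committed precursor genes varied between cultures. Gpr17, a receptor that marks the step from precursor to oligodendrocyte, stood at 110 to 726 CPM in K27M (median 233), against 185 to 1840 CPM in Control (median 503), with ratios of -2.56, -1.01 and -0.26. Enpp6 had ratios of -2.33, -0.11 and -2.78, and Bmp4 of -3.19, 0.19 and -0.38. Without culture 38, 3 of this list fell and 1 rose, and without the 2 Control wells of culture 42 the counts were 6 and 2 (median -0.19).

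Cholesterol synthesis, which supplies the myelin membrane, was slightly lower. Of 23 genes 11 fell and 0 rose, with a median of -0.27 and culture medians of -0.33, -0.23 and -0.17. Hmgcs1, an early enzyme of the pathway, stood at 510 to 766 CPM in K27M (median 673), against 755 to 1041 CPM in Control (median 945), a log2 fold change of -0.47 ± 0.11 (adjusted p = 0.000787, over culture sums 0.309). Mvd fell by the same amount without overlap of wells. Without culture 38, 1 gene of the list was called, and without the 2 Control wells 4 were.

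Astrocyte markers were lower in K27M in culture 38. Of 16 tested 6 fell and 1 rose, with a median of -0.64, but the culture medians were -1.30, 0.08 and -0.40. Gfap, the intermediate filament of astrocytes, stood at 0.583 to 209.3 CPM in K27M (median 7.42), against 6.64 to 290 CPM in Control (median 168). Its culture ratios were -5.46, 0.46 and -0.82 (log2 fold change -2.16 ± 0.64, adjusted p = 0.0123, over culture sums 0.489). Sox9, which astrocytes and early precursors share, rose by 0.60 without overlap. The summed level of 7 astrocyte markers was 27.5 to 131 TPM in K27M (median 35.4), against 37.9 to 150 TPM in Control (median 120). In culture 38 it was 27.5 to 35.3 TPM in K27M and 112 to 134 TPM in Control. The wells of culture 41 overlapped. In culture 42 the K27M wells 1, 2 and 3 stood at 131, 131 and 29.1 TPM, against 120 to 150 TPM in Control. Without K27M culture 42 well 3, 5 of the list fell and 1 rose (median -0.50). None of these calls was kept without culture 38. Id1 and Id3, targets of BMP signalling, moved likewise, with culture 38 ratios of -2.76 and -2.21 and ratios between -0.66 and -0.18 in the others. Gpr37l1 and Scrg1, which astrocytes also express, fell in all 3 cultures (Gpr37l1 ratios -1.91, -1.37 and -0.84). The part of astrocytes in these decreases was not tested.

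**Figure D3:**
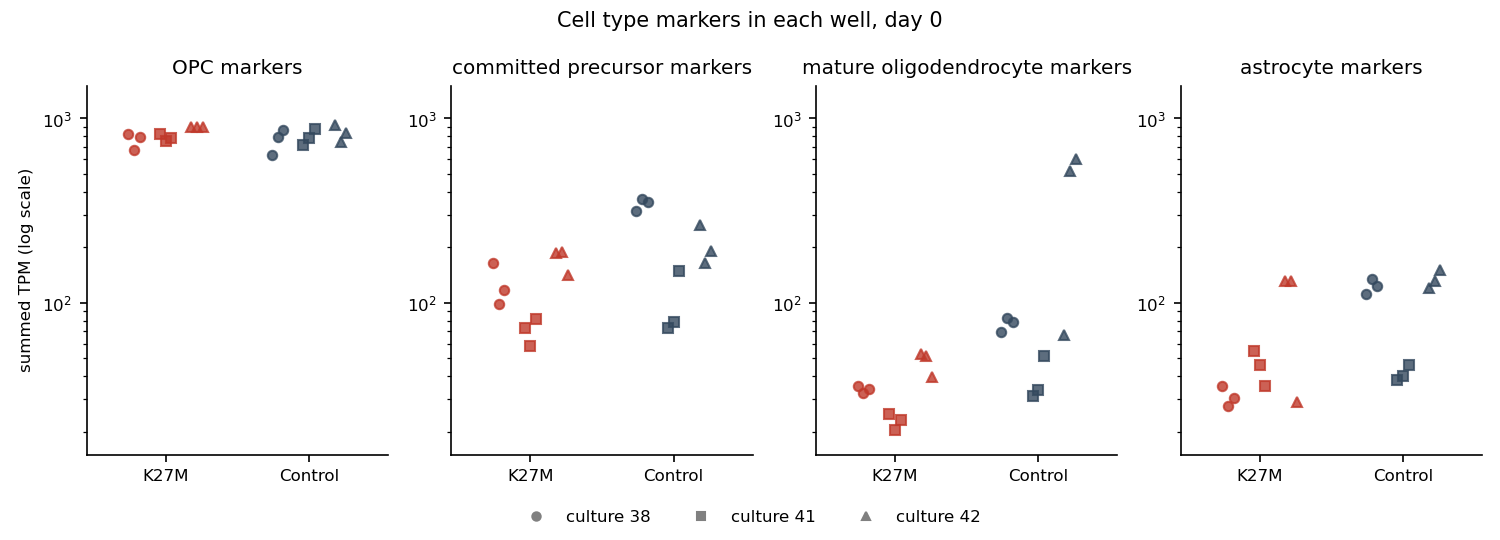
Summed TPM (log scale) of OPC, committed precursor, mature oligodendrocyte and astrocyte markers in each K27M (left) and Control (right) well, by culture (symbols). OPC marker sums overlap fully, at 670 to 904 TPM in K27M and 637 to 926 TPM in Control, and 2 Control wells of culture 42 stand at 518 and 599 TPM for mature oligodendrocyte markers.

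The genes of the lysine 27 methylation machinery were followed as lists. Among 12 PRC2 subunit genes 2 rose (16.7%, against 5.96% over all genes tested) and 0 fell, the 2 being Epop (0.85 ± 0.15, adjusted p = 1.09e-05, over culture sums 0.0897) and Aebp2 (0.28 ± 0.08). Epop stood at 8.11 to 10.2 CPM in K27M, against 2.84 to 6.94 CPM in Control. The core genes Ezh2 (0.17, adjusted p = 0.109), Suz12 (0.01, 0.906) and Eed (-0.11, 0.858) did not pass. Of 20 genes of the sister complex PRC1 6 rose and 3 fell (median 0.11), and 1 was called without culture 38. Bmi1 was at 123.5 to 142.3 CPM in K27M, against 105 to 120 CPM in Control, without overlap (0.28 ± 0.05, adjusted p = 3.09e-06). The demethylase genes Kdm6a and Kdm6b did not pass the test (0.12 and 0.18).

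Cdkn2a, the tumour suppressor locus that Polycomb keeps silent in many dividing cells, was lower in K27M. It stood at 0.990 to 4.82 CPM in K27M (median 2.45), against 4.32 to 10.5 CPM in Control (median 7.98). The wells overlapped slightly (log2 fold change -1.61 ± 0.32, adjusted p = 8.38e-05, over culture sums 0.228). Most of it was Cdkn2a-202, whose first exon is that of p19Arf, at 2.07 TPM on average in K27M and 5.56 TPM in Control. The p16Ink4a transcript Cdkn2a-201 was at 0.0938 TPM in K27M and 0.342 TPM in Control.

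Genes of the integrated stress response, which cells switch on when protein synthesis or amino acids run short, were mostly higher where called. Of 23 tested 10 rose and 1 fell (Ddit4), with a median of 0.26 and culture medians of 0.37, 0.47 and 0.14. Chac1, a glutathione-degrading enzyme gene, stood at 2.14 to 8.40 CPM in K27M (median 4.15), against 0.980 to 2.83 CPM in Control (median 1.76), with overlapping wells (1.33 ± 0.21, adjusted p = 7.36e-07, over culture sums 0.0686). Further members of the response also rose, among them Slc7a11 (1.28), the pseudokinase gene Trib3 (1.00), Pycr1 (0.95), Slc7a1 (0.80), Asns (0.52) and Mthfd2 (0.51). Over culture sums edgeR called 0 of the list, with 9 at an unadjusted p under 0.05, and DESeq2 on wells called 16. Without culture 38 the wells gave 5 higher, and without culture 41 they gave 5 higher and 1 lower.

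In the axon guidance list 12 of 50 genes rose and 3 fell (median 0.12), with increases of the guidance cues Slit2 (1.12) and Sema3e (1.03) and the ephrin receptor Epha2 (1.199) and decreases of Ntn1 (-0.64) and Unc5c (-0.52). Of 22 TGF-beta pathway genes 5 rose and 0 fell (median 0.18), led by Inhba and Tgfbi. Without culture 38 these counts were 2 and 1 for axon guidance and 1 and 0 for TGF-beta. Insulin-like growth factor genes led the growth factor list, where 4 of 35 rose and 1 fell. Igf1 (3.26 ± 0.59, adjusted p = 1.95e-05, over culture sums 0.0379) averaged 1.17 CPM in K27M and 0.175 CPM in Control, Igfbp5 rose by 2.42, and the receptor gene Igf1r rose by 0.73 without overlap of wells. The Wnt list gave 6 higher and 4 lower of 44, the Notch list 4 and 2 of 27, and the BMP list 2 and 5 of 34, against 2 and 1, 2 and 0, and 2 and 0 without culture 38. The shares higher and lower were 13.6% and 9.09% for Wnt, 14.8% and 7.41% for Notch, and 5.88% and 14.7% for BMP. Over all genes tested they were 5.96% and 9.71%, so several of these shares lay near those of all genes. Interferon response genes gave 0 higher and 5 lower of 21 (median -0.19), and immediate early genes 5 higher and 0 lower of 28, and the calls of both lists were lost without culture 38.

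Sex-linked genes differed between the pools. Of 9 sex-linked genes tested, Xist, which only cells with 2 X chromosomes express, stood at 299 to 438 CPM in K27M, against 75.9 to 219 CPM in Control, without overlap (1.33 ± 0.26, adjusted p = 8.31e-05). The Y-linked genes Kdm5d, Eif2s3y, Ddx3y and Uty fell by 2.30 to 2.47 on the log2 scale, and Kdm5d ranged from 0 to 15.1 CPM in K27M, against 10.8 to 38.7 CPM in Control, with the largest difference in culture 42 (log2 ratio -4.57). Over culture sums none of these was called (adjusted p = 0.217 for Xist and 0.393 for Kdm5d). The part of sex in the other differences was not tested.

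**Figure D4:**
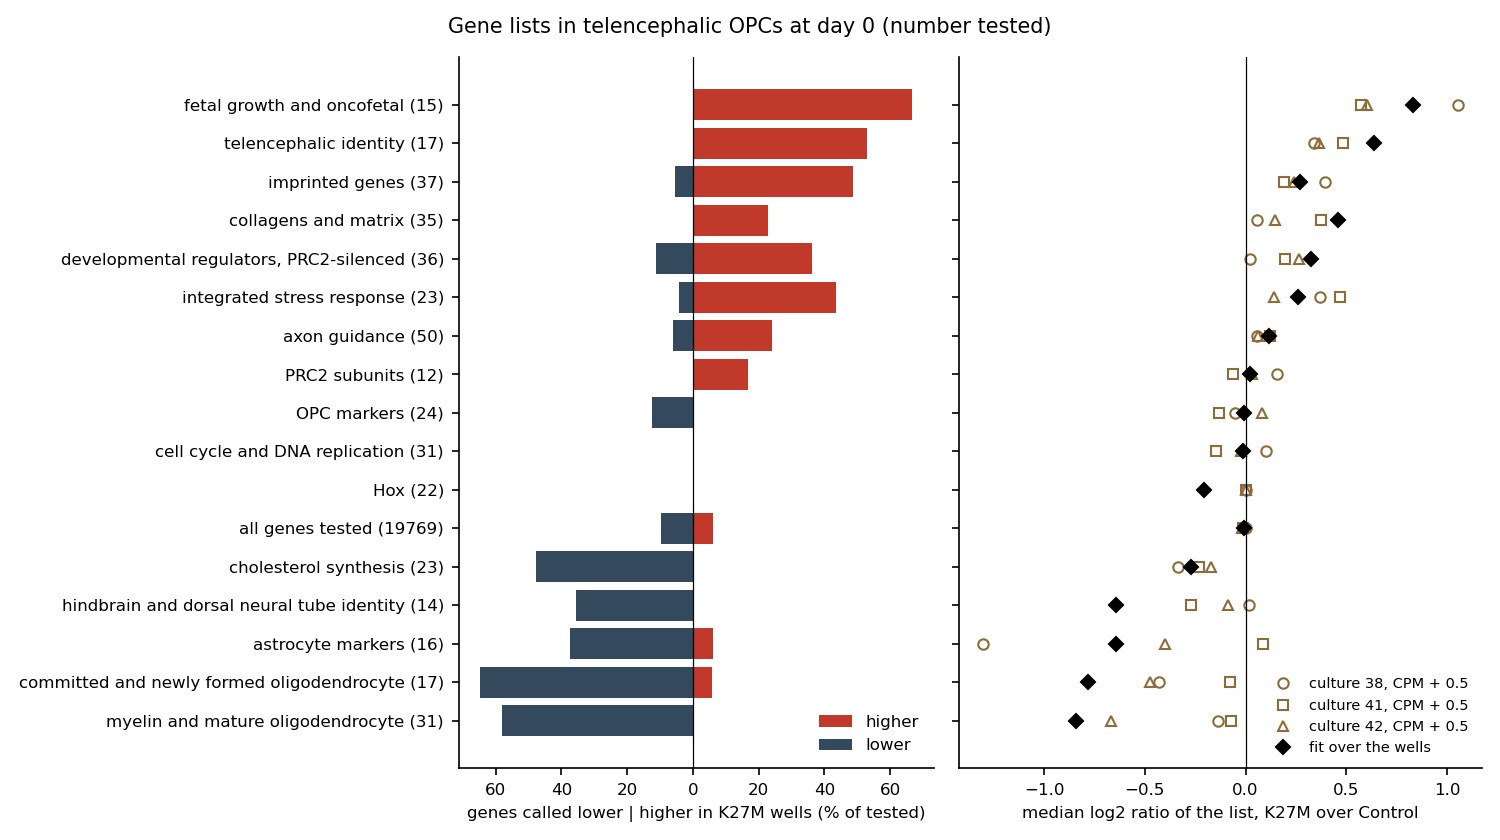
Left, percent of the tested members of each gene list that were called higher (red, to the right) or lower (dark, to the left) in K27M. Right, the median log2 ratio of each list, K27M over Control, in each culture (open symbols) and in the fit over the wells (diamonds), from 0.83 for fetal growth genes to -0.84 for myelin genes.

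The genes that met the rule were then followed in the other telencephalic wells, which come from the same culture lines but are different wells. Their choice by day 0 values favours large effects on day 0. Smaller medians on other days can follow from this choice alone and cannot be read as a decline. The 22 higher genes other than Prm1 had a median log2 fold change of 1.52 at day 0, 1.64 after 1 day of differentiation, 1.18 after 2 days and 0.79 after 5 days. They were called in the same direction in 22, 21 and 17 cases on days 1, 2 and 5, where 28.8%, 32.3% and 22.3% of all genes were called in either direction. Zdbf2, Asb4, Gjc1, Sybu, Dmrta2, Piezo2, Syk and Tenm3 kept increases of at least 1 on the log2 scale on each day. Col4a1 and Col4a2 did not pass on day 5 (-0.21 and 0.21). On wells their day 0 effect was larger than that of day 5 (edgeR adjusted p of the difference 2.62e-06 and 1e-05). Hspa12a likewise was at 0.31 on day 5 (adjusted p of the difference on wells 6.12e-05). None of these differences from day 5 was called over culture sums.

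The 17 lower genes had medians of -0.59, -0.45, -0.27 and -0.21 on days 0, 1, 2 and 5, and 14, 13 and 9 of them were called lower on the later days. Gpr37l1 stayed between -1.41 and -0.82 throughout. Ttc9b turned round, with -0.59 on day 0, -0.11 on day 1, 0.67 on day 2 and 0.73 on day 5, and this difference held over culture sums (day 0 minus day 2, adjusted p = 0.00159). Over all genes the day 0 effect differed on wells for 1110 genes from day 1 (5.61%), 2301 from day 2 (11.6%) and 2014 from day 5 (10.2%).

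In brainstem OPCs at day 0, which share no library with the telencephalic ones, 2237 genes were called on wells (11.3%), 1519 higher (7.68%) and 718 lower (3.63%). Genes higher in K27M in both regions numbered 369, which is 31.3% of the telencephalic and 24.3% of the brainstem list, and 10 of the telencephalic list were lower in the brainstem. Genes lower in both numbered 202, which is 10.5% of the telencephalic and 28.1% of the brainstem list, with 59 in opposite directions. Of the 22 higher genes 20 were also higher in the brainstem (median 1.42), and of the 17 lower genes 7 were also lower there (median -0.19). Both sets were chosen by telencephalic values, so smaller brainstem medians can follow from the choice alone.

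The effect itself differed between the regions for 1421 genes on wells (7.19%), among them 9 of the 22 higher and 10 of the 17 lower genes. The choice of these genes by their telencephalic effect favours such differences. The labels put the brainstem wells in batches 3 and 4, so region and batch cannot be told apart. Brainstem passage at day 0 also differed between genotypes, at 1 to 2 in K27M and 4 in Control for culture 41. For culture 42 it was 1 to 5 in K27M and 3 to 8 in Control. The part of batch and passage in the regional differences was not tested. The log2 fold change of Dmrta2 was higher in the telencephalon (1.94 in the telencephalon and -0.24 in the brainstem, adjusted p of the difference 1.92e-07). Col4a2 rose more in the telencephalon (1.93) than in the brainstem (0.87, adjusted p of the difference 0.0125). Asb4 (4.30 and 7.09), Nedd4l (1.48 and 3.68) and Piezo2 (1.56 and 2.71) rose more in the brainstem, each by a called difference. Skap2 fell in the telencephalon (-0.84) and stood at 0.05 in the brainstem (adjusted p of the difference 1.88e-09). Over culture sums the regional difference was called for 1 gene (0.00435%), the forebrain regulator Lhx2 (0.66 in the telencephalon and -4.52 in the brainstem, adjusted p = 1.52e-05), and for none of the 39 genes above. At an unadjusted p under 0.05 the culture sums gave 1677 genes.

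**Figure D5:**
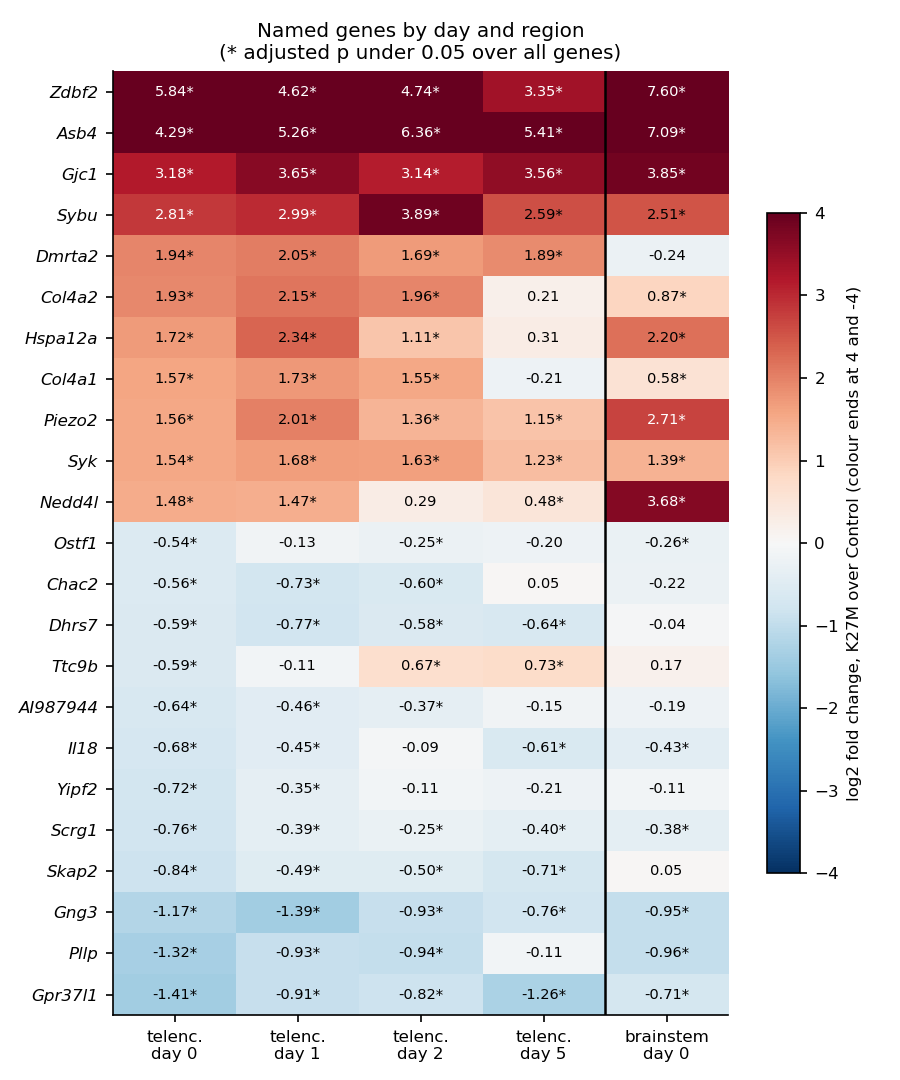
Log2 fold change (K27M over Control) of the named genes without Prm1 in telencephalic OPCs on days 0, 1, 2 and 5 and in brainstem OPCs on day 0, with an asterisk where the gene was called on wells. Zdbf2, Asb4, Gjc1 and Sybu were called higher in every column, while Col4a1 reads -0.21 and Ttc9b 0.73 in telencephalic OPCs on day 5.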

How the data were processed

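RNA of OPC cultures was sequenced as paired ends from stranded total RNA libraries. The study's methods give quantification with Salmon 1.10.1 in the nf-core rnaseq 3.11.2 workflow against mm10 and Gencode, with sequence and GC bias correction. The authors deposited, for each library, 1 file of estimated counts, TPM and effective length per transcript. Neither value was changed before use.

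Transcripts were summed to genes with the GENCODE annotation at hand. Of 141084 transcripts 139821 matched, in 54127 genes, and 0.267% to 0.325% of the read pairs of the 18 libraries fell on the rest and were left out. Gene counts were rounded and tested with edgeR 4.0.16 (quasi-likelihood test, TMM scaling, Benjamini-Hochberg adjustment) in R 4.3.3, in 1 fit over all libraries of the series with a term for each group and for each culture within its region, which left 122 residual degrees of freedom and 19769 genes after the filter on low counts. The same test was run on counts summed over the wells of a line and day (48 sums, 23003 genes). Genes were followed where both tests gave an adjusted p under 0.05, with the same sign in all 3 cultures and a mean of at least 5 CPM in K27M or Control, and the 12 highest and 12 lowest of those with an established symbol were named. Of each of the 41 gene lists, up to 4 called members with a mean of at least 1 CPM were named, largest change first, and further names were added with their values in view. Some members of the lists are not reported here. The comparison, its members and the lists were chosen with earlier results of these data known.

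Since the wells of a line share cells, their p-values reflect mainly differences from well to well. Depth limits mainly the genes under 1 CPM. Promoter windows came from RefSeq (GRCm38.p6). The test on wells was run on simulated counts in which wells varied independently, with no effect of culture. That run therefore cannot show how shared cells within a line affect the calls. DESeq2 1.42.0, other scalings and filters, batches and omitted libraries were tried as alternatives.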

Additional observations from a re-analysis of the deposited data

Results flagged for a closer look

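A single well stood far from the other 8 of its group in 2 of the 53 groups of wells examined, and chance alone would give about 1 in 20. Zdbf2 reached 1.46 CPM in well 3 of Control culture 38, against a Control median of 0. H3f3a reached 329.4 CPM in well 1 of Control culture 38, against a Control median of 272.8 CPM.

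The K27M effect differed between telencephalon and brainstem at day 0 for 12 of the named genes in the test of the difference on wells. The log2 fold change in the telencephalon minus that in the brainstem was 2.17 for Dmrta2, 1.06 for Col4a2 and 0.99 for Col4a1. It was -2.80 for Asb4, -2.20 for Nedd4l and -1.15 for Piezo2, which rose in both regions. It was -0.89 for Skap2, -0.77 for Ttc9b, -0.70 for Gpr37l1, -0.62 for Yipf2, -0.55 for Dhrs7 and -0.45 for AI987944, which fell in the telencephalon. None of these 12 differences was called over culture sums, and the choice of the genes by their telencephalic effect favours such differences. Region and batch also cannot be told apart in them.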

How the results depend on the processing

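The 3097 genes called on wells (38.0% of them higher) became 1989 with no filter on low counts, 1961 with no replicate block for culture, 6141 in a fit of the 18 libraries alone (48.6% higher), 6002 in batch 1 alone, 6632 with DESeq2, 1558 with DESeq2 and a fold threshold of 1.1 (56.7% higher), 496 of at least 2-fold (51.0% higher) and 75 over culture sums (64.0% higher), or 14 where only the 6 sums of day 0 were fitted. Leaving out a culture or K27M culture 42 well 3 gave 697 to 2862. Same-numbered wells of the genotypes did not deviate together (correlations -0.06 to 0.13), so the numbers do not pair them; culture by well number as replicate block in the 18 libraries gave 4991 calls. Over culture sums the differences of effect fell to 1 gene against the brainstem and to 0, 2 and 23 against days 1, 2 and 5 (1677, 1100, 1760 and 1679 at an unadjusted p under 0.05). The sign turned for Hes5 in batch 2 alone (0.10) and without a culture (-2.35 to 0.29), for Gad1 in batch 1 alone (-0.16), and without Control culture 42 wells 2 and 3 for Grm7 (0.12), Mag (0.073), Mobp (0.20) and Tmem125 (1.34). Mobp was also at 0.14 in batch 1 alone, and without a culture it ranged from -6.53 to 0.14 and Tmem125 from -5.50 to 0.57. These are genes at low levels or high in few wells, and the cause was not tested. The 24 named genes stayed called in every alternative run on wells except 1 gene in batch 2 alone, and Col4a1, Ttc9b, Il18 and Yipf2 missed the threshold over culture sums without K27M culture 42 well 3. These genes were chosen by their calls and equal sign in the same cultures, which made such stability likely. It is therefore not separate evidence for them. Of 135 single-gene results, 66 lost their call without culture 38.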
